A study of Naumovozyma castellii with 4 samples.

Results

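The genes described here are the 150 unique genes of Saccharomyces castellii with the highest level of RNA relative to genomic DNA, out of 4842 that could be ranked and 5688 on the array. A gene could be ranked if both of its probes were well above background with either dye on each of the 4 arrays, which held for 5305 genes. Genes whose identifier ends in d, genes alone on their contig and genes with a probe sharing 25 bases with a probe of another gene were then left out. The level of a gene is the log2 of RNA over genomic DNA signal after background subtraction, averaged over its probes, minus the median of all genes on that array. A level of 0 is therefore that of the median gene, and each step of 1 is a doubling. The 150 genes were chosen on this value, so their levels are a description and were not tested.

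S. castellii is a budding yeast related to baker's yeast, and the study measured its RNA to set gene expression beside chromatin structure. All 4 arrays form a single group without a treatment or a control: strain NRRL Y-12630, grown in rich medium in 450 ml cultures at 30°C with shaking at 220 RPM, collected in mid-log phase. Total RNA was labelled with Cy3 (green) and hybridized together with Cy5-labelled (red) genomic DNA of the same strain, which served as a common reference. Dyes were never swapped, so an effect of the dye on a probe remains in its ratio. According to the methods the arrays are biological replicates, and across the study's species the authors left out replicates that correlated poorly. Whether an array of this yeast was left out is not stated.

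In growing yeast a small set of genes supplies a large part of the messenger RNA. In baker's yeast these genes encode mainly ribosomal proteins, translation factors and enzymes of glycolysis. Their coding sequences use a restricted set of synonymous codons, those read by the most abundant transfer RNAs. None of the identifiers in the files could be paired with a gene name (0 of 5688 matched the reference table), so no member is given a function below and the members are known by contig and position number.

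The members spanned a narrow range at the top of a wide one. Scas_701.41 was highest at 5.69 ± 0.19 (SD, n = 4 arrays), or 51.5-fold above the median gene, and Scas_544.7 was the last to enter at 3.30 ± 0.14, or 9.85-fold above it. The median member lay at 4.22, an 18.7-fold excess. Of the 150, 12 were at a level of 5 or more, 77 lay between 4 and 5, and 61 lay below 4. For comparison, the 5th and 95th percentiles of the 4842 ranked genes were at -1.70 and 2.75. The members made up 3.10% of the ranked genes and 29.4% ± 0.92 (SD, n = 4) of their summed RNA over DNA ratio. Their share of the summed Cy3 signal of the ranked genes was larger, at 47.0% ± 0.77. Of the Cy3 signal of all gene probes on the array, including genes that could not be ranked, they held 36.2% ± 0.68. The 10 highest genes alone held 4.31% ± 0.20 of the summed ratio.

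The highest gene, Scas_701.41, was at 5.50, 5.86, 5.85 and 5.54 on arrays 1 to 4. Arrays 2 and 3 were thus above arrays 1 and 4 for this gene. Scas_641.27 followed with 5.39, 5.85, 5.67 and 5.47, and Scas_519.5 with 5.43, 5.49, 5.84 and 5.50. The ranges of these 3 genes over the arrays overlapped, and each mean was within 1 SD of the next. Scas_668.13 was at 5.57, 5.55, 5.50 and 5.28, with array 4 the lowest, whereas Scas_656.19 was at 5.14, 5.34, 5.83 and 5.45, with array 3 the highest. Scas_680.28 had the brightest RNA signal of all 150 genes and levels of 5.53, 5.33, 5.05 and 5.38. Its lowest value was on array 3, the array on which Scas_656.19 and Scas_519.5 were highest.

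Among the other genes at the top, Scas_709.62 was nearly constant, with 5.36, 5.31, 5.33 and 5.27 (mean 5.32 ± 0.04). Scas_706.4 had almost the same mean, 5.31 ± 0.32, from values of 5.48, 5.06, 5.68 and 5.02 that fell in a high and a low pair. Scas_648.15 averaged 5.30 ± 0.11 and Scas_525.4 averaged 5.24 ± 0.09. The largest gap between neighbours in the whole order, 0.13 on the log2 scale, came directly after Scas_525.4, the gene at rank 10. In 0 of 149 neighbouring pairs did the means differ by more than the larger of the SDs of the 2 genes, so single ranks within the 150 are not resolved by 4 arrays.

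**Figure D1:**
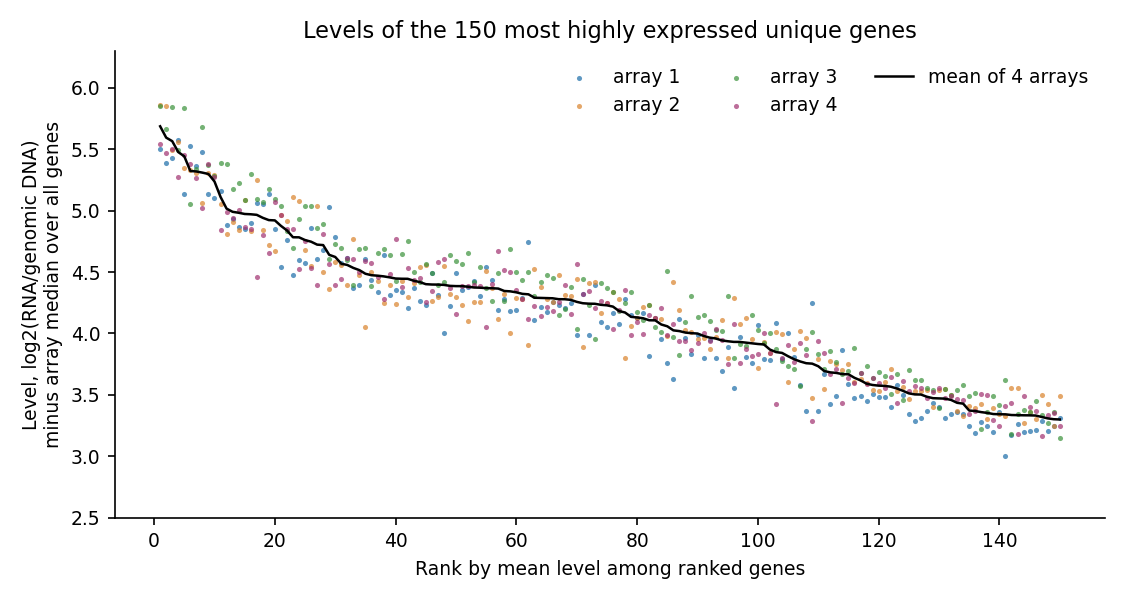
Level (log2 of RNA over genomic DNA minus the array median over all genes) of each of the 150 genes against its rank, with a point for each array and a line for the mean of 4 arrays. The line falls from 5.69 to 3.30 without a step larger than 0.13, and the points of single arrays spread over many ranks.

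The lower limit of the set was equally smooth. The last 5 members, Scas_635.14, Scas_660.16, Scas_624.1, Scas_571.5 and Scas_544.7, were at 3.33, 3.32, 3.31, 3.30 and 3.30. The first 5 genes outside, Scas_699.28, Scas_670.18, Scas_644.5, Scas_705.10 and Scas_712.29, were at 3.29, 3.29, 3.29, 3.28 and 3.28. The step between the last member and the next gene was 0.0068, far below the SD between arrays of either (0.14 for Scas_544.7 and 0.14 for Scas_699.28).

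Each array alone gave largely the same set. On arrays 1 to 4, respectively 145, 145, 141 and 146 members were among the 150 highest of that array, and 134 members were so on all 4 arrays. The other 16 missed the limit on 1 array (9 genes) or on 2 arrays (7 genes), and the lowest rank that any member took on an array was 182. Each array entered the mean that chose the members, so these counts are in part set by the rule. When 150 genes were chosen on 3 arrays, the array left out had 142, 141, 140 and 144 of them among its 150 highest. In the same order, arrays 1 to 4, the median level of these genes on the array not used for ranking was 4.12, 4.18, 4.25 and 4.15. On the 3 arrays used to choose them the medians were 4.21, 4.19, 4.18 and 4.20. The array left out still took part through the requirement of signal well above background, so these values are a description too.

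A further 118 genes lay at or above the lowest member but could not enter by the rule. Of these, 52 had a probe that was not well above background. Among the other 66, 60 shared 25 bases with another gene, 4 were alone on their contig and 2 had an identifier ending in d. Probes that share sequence cannot separate the RNA of the genes they share it with.

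The members varied more between arrays than the ranked genes as a whole, a description without a test. The median SD between arrays was 0.137 over the 150 members and 0.085 over all 4842 ranked genes, and 129 members (86.0%) exceeded the latter. Within the set the SD was larger at the top: its median was 0.187 over the 50 highest members and 0.117 over the 50 lowest. Both dyes showed it. The median SD of the RNA signal was 0.148 in members against 0.115 in ranked genes, and that of the genomic DNA signal was 0.096 against 0.060. The range of SDs among members ran from 0.032 to 0.451, and 109 members stayed below 0.2.

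Scas_707.20 had the largest SD, with levels of 4.25, 3.47, 4.01 and 3.29 on arrays 1 to 4 (SD 0.45). Scas_663.23 came next with 4.74, 3.91, 4.50 and 4.12 (SD 0.37). In both genes arrays 1 and 3 were the high pair and arrays 2 and 4 the low pair, the same grouping as in Scas_706.4. Scas_721.102 came after them in spread (SD 0.35) but with another pattern, at 5.06, 5.25, 5.09 and 4.46. The most constant members were Scas_704.33, at 4.12, 4.13, 4.17 and 4.10 (SD 0.03), and Scas_672.8, at 4.12, 4.12, 4.05 and 4.13 (SD 0.04). Over the members as a set, the deviations of a probe on each array from its mean over arrays were only weakly shared by the other probe. They correlated with r = 0.11 for overlapping and 0.12 for separate probes. Array patterns of single genes thus describe the mean of 2 probes and were not tested.

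As a group, the members were lowest on array 1 and highest on array 3. The median level over the 150 genes was 4.12, 4.18, 4.25 and 4.15 on arrays 1 to 4, that is 4.18 ± 0.06 (SD, n = 4). Array 1 gave the lowest of the 4 values for 73 members and array 3 the highest for 77. The ranked genes as a whole were dimmest in RNA on array 3, with a median Cy3 signal of 2122 against 2703, 2457 and 2476 on arrays 1, 2 and 4, and the part of this in the shift of the members was not tested. Across the 150 members, levels correlated between arrays with a Pearson r of 0.908 to 0.943 over the 6 pairs, compared with 0.991 to 0.996 across the 4842 ranked genes, whose range of levels is far wider. These correlations are over genes measured with the same probes and the same reference, and genes are not independent replicates.

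In the separate dyes, the members were bright in RNA and also bright in genomic DNA. Their median RNA signal was 5.40 above that of the median gene on the log2 scale, or 42.2-fold. The median Cy3 signal of the members was 102790, 96159, 89360 and 92014 intensity units on arrays 1 to 4. No spot of a member was saturated, and the brightest reached 623951 units where the scanner's limit was 776874. The genomic DNA signal, read as Cy5, varied little across the ranked genes below the 150, whose quartiles lay at -0.28 and 0.29 around a median of 0.00. In the members its median was 1.01 above the median gene, or 2.02-fold, with quartiles at 0.62 and 1.42. On the 4 arrays this median averaged 1.03 ± 0.09 (SD, n = 4).

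Of the 150 members, 141 (94.0%) had a genomic DNA signal above the median gene and 78 (52.0%) exceeded it more than 2-fold. Among the 4692 ranked genes below them the shares were 49.7% and 1.60%. Across the members, log2 RNA and log2 genomic DNA signals correlated with r = 0.82 (n = 150), and across the 4692 genes below them with r = 0.23. The members were chosen on the difference of these signals, which among them runs only from 3.30 to 5.69. A high correlation is therefore in part set by the choice, and the 2 values of r cannot be compared as a trait of the members. Both signals of a gene come from the same spots, so the points share the amount and quality of the probe. Because the level is the difference of the 2 signals, a bright reference lowers it, and by RNA signal alone 132 of the 150 genes would have been chosen.

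**Figure D2:**
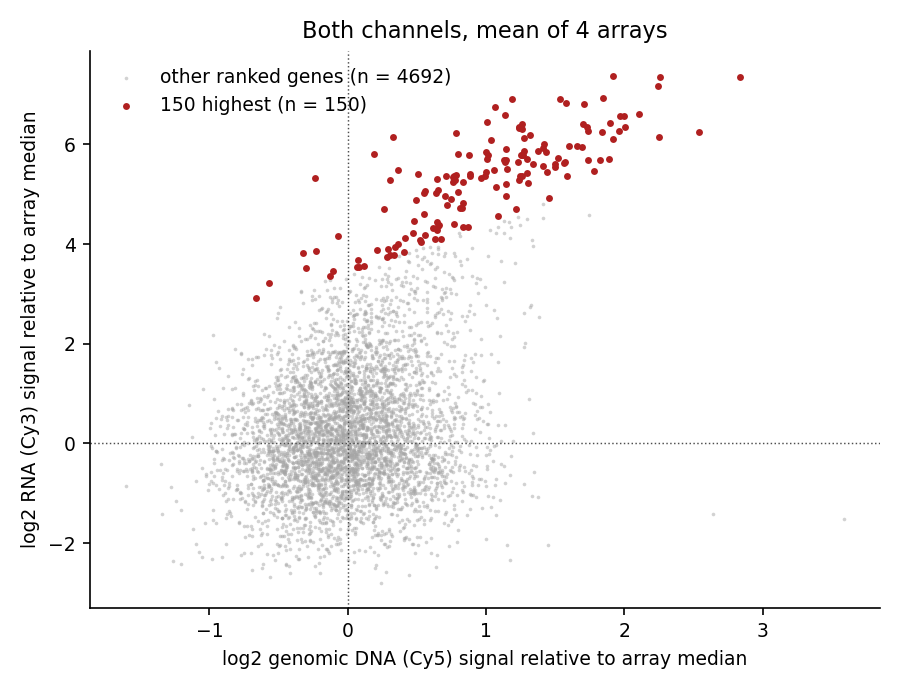
Log2 RNA (Cy3) signal against log2 genomic DNA (Cy5) signal, both relative to the array median and averaged over 4 arrays, for the 150 highest genes (red) and the other 4692 ranked genes (grey). The grey genes centre on a genomic DNA signal of 0, while the red genes centre on 1.01 and reach 2.83. RNA and DNA signals of the red genes increase together, in part because these genes were chosen on the difference of the signals.

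The brightest genomic DNA signal belonged to Scas_633.2, at 2.83 ± 0.19 (SD, n = 4) above the median gene, together with an RNA signal of 7.35 and a level of 4.38. Scas_614.12 followed at 2.54 ± 0.07, Scas_718.43 at 2.26 ± 0.20 and Scas_714.24 at 2.25 ± 0.23. Of these 4 genes Scas_718.43 had the highest level, 4.97, with values of 4.85, 5.08, 5.09 and 4.87 on arrays 1 to 4. The other end was held by Scas_595.2, with a genomic DNA signal of -0.66 ± 0.08, and Scas_716.68, with -0.57 ± 0.12. Scas_595.2 also had the dimmest RNA signal of the members, 2.93, and a level of 3.46. Without a dye swap, Cy5 signal from genomic DNA and any part of it that goes with the Cy3-labelled RNA cannot be told apart, and copy number and probe affinity were not tested.

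The 2 probes of a gene are separate readings of its RNA unless they overlap. In 61 members (40.7%) the probes shared at least 15 bases, compared with 15.9% of the ranked genes, and the shared stretch had a median of 30 bases out of 55. The probe that comes first in the file's numbering lay downstream, toward the 3′ end of the listed strand, in each of the 1073 overlapping pairs on the array whose ends could be joined. For probes that do not overlap the order along the gene is not given in the sources used here. Members with overlapping probes had a median level of 4.28, and members with separate probes one of 4.11.

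The rule used the mean of both probes and not their difference, which was tested across all genes. Because both probes entered the rule through that mean, the counts of members are given as a description. By limma's treat test for a difference of more than 2-fold, with Benjamini-Hochberg adjustment over 5305 genes, 0 of 150 members were called, where 0.829% of all genes tested were called (37 with the first probe higher, 0.697%, and 7 with the second higher, 0.132%). Over all genes the 44 calls became 26, 27 and 18 without arrays 1, 2 and 4, while members had 0 calls each time. With all 4 arrays the widest difference of any member was 0.80 on the log2 scale, below the 2-fold limit of 1. The treat test could therefore call no member, with or without adjustment, and no conclusion is drawn from the count of 0. By limma's eBayes with no minimum fold, 40 members (26.7%) were called, 31 with the first probe higher and 9 with the second higher. The background of that test was 61.0% of all genes, 44.0% with the first and 17.0% with the second probe higher. The adjusted p-values measure the spread between these 4 arrays alone.

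The probes of the members lay closer together than those of other genes. The median absolute difference was 0.155 in members and 0.286 in ranked genes. For separate probes it was 0.156 in 89 members and 0.318 in 4074 ranked genes, while for overlapping probes it was 0.154 in 61 members and 0.158 in 768 ranked genes. The low value of the members therefore lay in their separate probes. Among genes with separate probes, eBayes called 28.1% of the members and 66.0% of all genes tested. In 133 members either probe alone was at or above the lowest member's level, and the lowest single probe of any member was at 3.08.

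**Figure D3:**
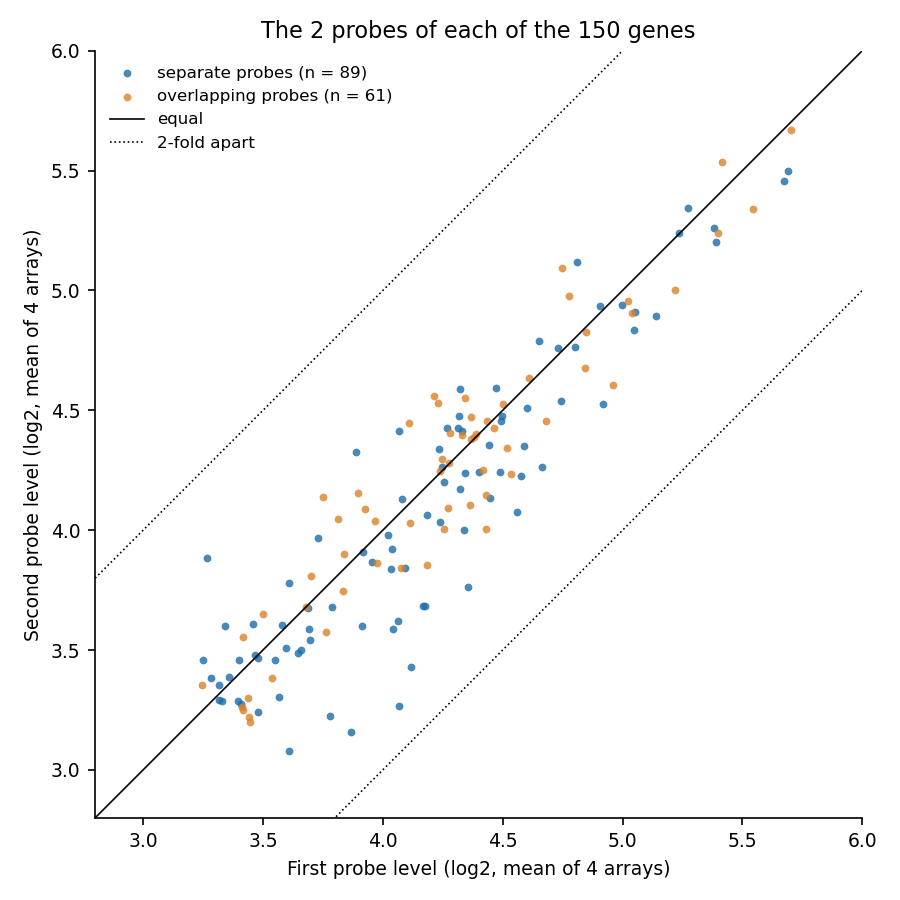
Level at the second probe against level at the first probe, mean of 4 arrays, for the 89 members with separate probes and the 61 with overlapping probes, with lines for equality and for a 2-fold difference. The points follow the line of equality (r = 0.92 across 150 genes), and none lies past the dotted lines.

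The first probe was the higher in 92 of 150 members (61.3%) and in 66.0% of ranked genes, and the median of first minus second probe was 0.08 and 0.15. A difference of more than 0.5 was found in 7 members (4.67%) against 26.4% of ranked genes. The widest belonged to Scas_716.68, where first minus second probe was 0.53, 0.70, 1.04 and 0.93 on arrays 1 to 4. Its mean difference was 0.80 ± 0.09 (SE, n = 4 arrays, limma adjusted p = 1 for more than 2-fold and 0.00036 for any difference). Scas_549.1 differed by 0.71 ± 0.06 (SE), with values between 0.64 and 0.83 on every array. In Scas_714.42 the mean of 0.69 ± 0.24 (SE) hid a change of sign, with 1.05, -0.32, 0.70 and 1.31 on arrays 1 to 4. Scas_614.12, also among the genes of brightest reference, was the widest with the second probe higher, at -0.62, -0.35, -0.79 and -0.71.

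The probes also carry short coding stretches, and these were read for synonymous codons. A reading frame was accepted where exactly 1 of the 3 frames of a probe held no stop codon, which gave a score to 100 members and to 3737 of the 4692 ranked genes below them. The score is the percentage of codons that belong to a list of 23 codons preferred in highly expressed genes of baker's yeast, leaving out methionine and tryptophan, which have a single codon. The median score was 83.3% in the members (quartiles 66.4% and 91.4%) and 47.1% in the genes below them (quartiles 38.9% and 55.6%). A score of 75% or more was reached by 63 of the 100 members and by 3.45% of the others. Read 1 base out of frame, the same probes gave medians of 35.4% and 40%, so the excess of the members was present in the accepted frame and not in the shifted one.

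Every amino acid with a choice of codons showed the same direction. In pooled codons (2161 in members, 88668 in the others), the preferred share was higher in members for 18 of 18 amino acids. The widest differences were those of tyrosine, where TAC made up 83.9% of codons in members and 38.5% in the others, and glycine, where GGT made up 88.2% and 45.3%. For lysine, AAG made up 85.8% and 53.1%, and for glutamate GAA made up 95% and 69.5%. For arginine, AGA made up 79.1% and 53.8%, while CGG was not seen among 115 arginine codons of members and made up 3.03% in the others. The isoleucine codon ATA made up 4.31% in members and 31.3% in the others, with ATC at 50.0% and 22.4% and ATT nearly equal at 45.7% and 46.3%. For aspartate the preferred codon stayed the less frequent one, with GAC at 37.7% and 25.6%. Codons of a gene are not independent, and these shares carry no test.

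**Figure D4:**
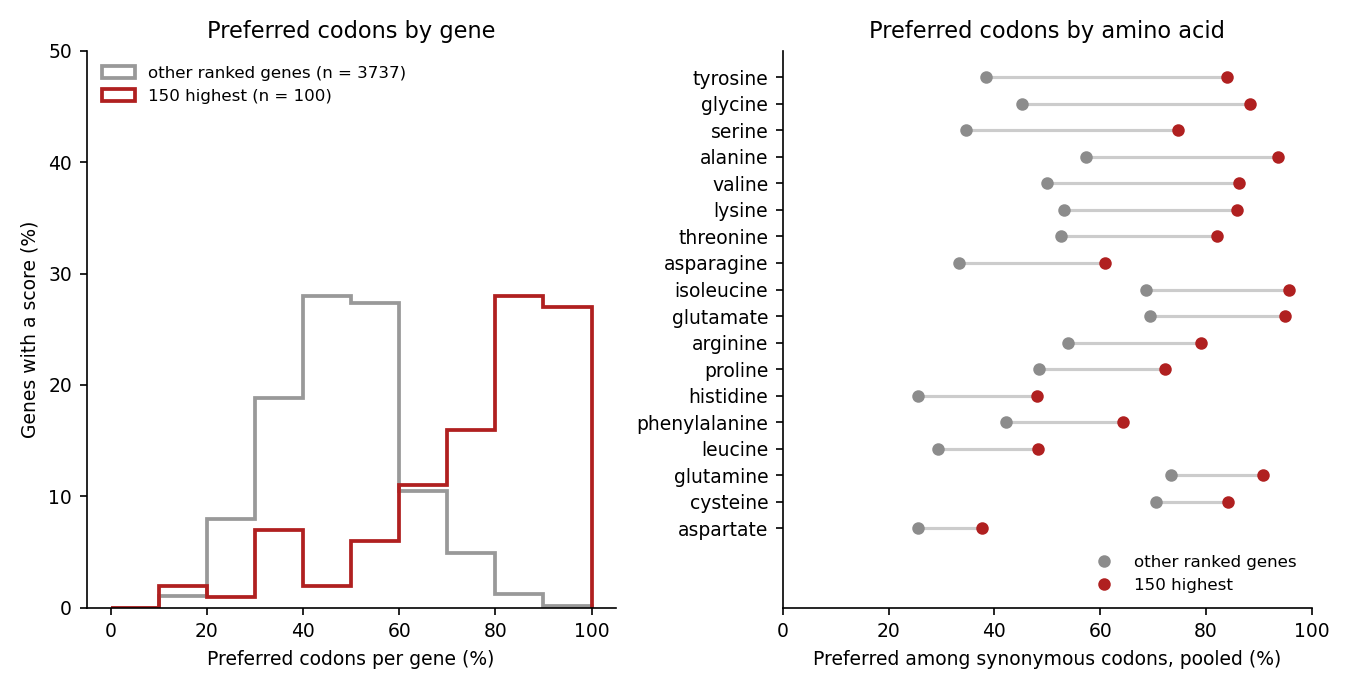
Left, the percentage of genes with a score in each 10-point class of preferred codons, for 100 members (red) and 3737 other ranked genes (grey). Right, the pooled percentage of preferred codons for each amino acid with a choice of codons, where the red point (members) lies to the right of the grey one (others) for all 18.

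The excess of preferred codons was larger at the top of the set. The median score was 88.2% over the 32 scored genes among the 50 highest members, 83.3% over 33 scored genes among the middle 50 and 66.7% over 35 scored genes among the 50 lowest. Gene by gene the relation was loose, with r = 0.26 across 100 members whose scores each rest on few codons. Scas_648.15 reached 100% and Scas_525.4 reached 96.9%. In contrast, 11 members scored below the median of the genes outside the set. These included Scas_519.5, at rank 3 by level with 31.2%, and Scas_721.102, at rank 17 with 35.3%, and the lowest of all was Scas_707.20 with 14.3%. The 3 members with the largest SD between arrays, Scas_707.20, Scas_721.102 and Scas_663.23 (41.2%), were all among these 11. The SDs of the other low scorers ran from 0.075 (Scas_682.20) to 0.214 (Scas_628.23), on both sides of the member median of 0.137. The overlap was seen after the scores were known, and a relation between score and SD was not tested. The low scores rest on few codons, 14 in Scas_707.20, 16 in Scas_519.5 and 17 in Scas_721.102, and Scas_519.5 was picked out after the scores had been seen. Frames were accepted by the absence of stop codons alone, so a probe that holds the end of its gene can be read in a wrong frame. Read 1 base out of frame, the members had a median of 35.4%. Whether a low score comes from the gene or from a wrong frame was not tested.

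Other features of the probes differed little or moderately. The median GC content was 40.9% in members (range 36.4% to 43.6%) and 39.1% in the genes below them (range 36.4% to 54.5%). Frames without a stop were more frequent in members, where 48.3% of probes had 2 such frames, compared with 33.0% in the others, and 4.67% had none, compared with 7.74%. In the codon stretches that were read, lysine codons made up 9.81% in members and 7.89% in the others, alanine codons 7.31% and 4.96%, valine codons 7.36% and 6.19%, and leucine codons 12.1% and 10.2%. Aspartate codons were less frequent in members, at 4.91% and 6.42%, and asparagine codons likewise at 4.49% and 5.74%. Lysine and arginine codons together made up 15.1% and 13.2%.

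The members were scattered over the assembly. They lay on 103 of the 305 contigs that held a ranked gene, 68 contigs held a single member, and the most on a contig was 5, on contigs 717 and 721. Among 4267 pairs of ranked genes with consecutive numbers on a contig, a single pair joined members, Scas_614.12 and Scas_614.13, at 3.57 and 3.55. These were named after the count was known. A further 258 pairs joined a member and a gene outside the set. Members thus held 0.77% of the 260 neighbour positions beside a member, where they made up 3.10% of the ranked genes, a comparison without a test. The 254 genes beside a member had a median level of 0.30, compared with 0.01 over the 4692 ranked genes below the members. No run of 3 neighbouring members occurred.

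The set differed with the processing of the arrays. Without background subtraction or after quantile normalization all 150 genes were chosen again, and with the first or the second probe alone 142 were. Processed signals of the scanner software, which are normalized between the dyes, kept 16, and loess within arrays kept 11. The cause of these low counts was not tested. The median level of the 150 genes under these settings was 0.65 and 0.36, and Scas_701.41 stood at rank 24 and rank 22.

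**Figure D5:**
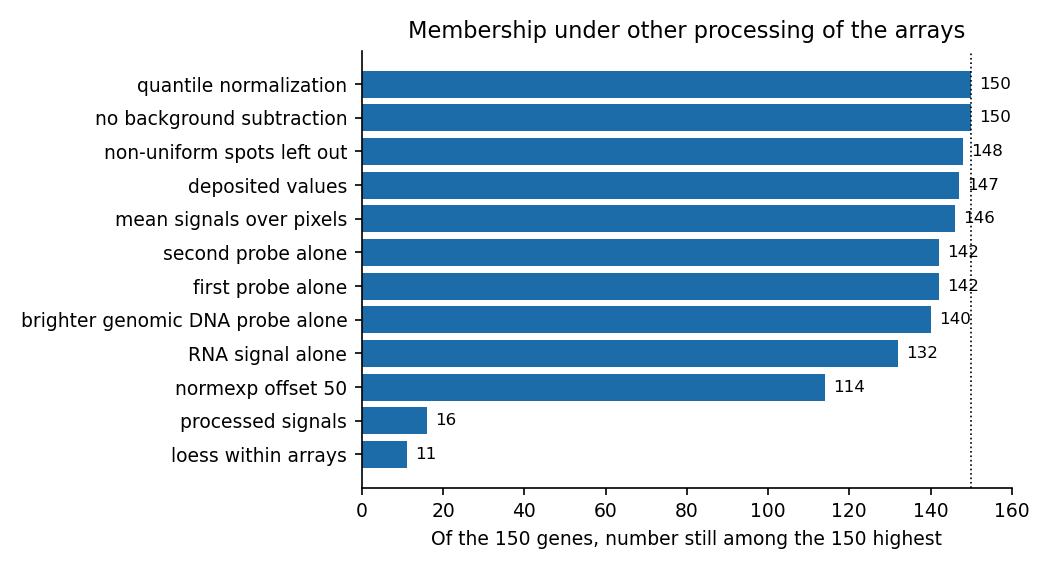
Number of the 150 genes that were again among the 150 highest under each of 12 other ways of processing the arrays, with a dotted line at 150. Bars of 10 settings reach at least 114, and those of processed signals and loess stop at 16 and 11.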

How the data were processed

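Per the file headers, the authors' scanner software (Feature Extraction 10.1.1.1) made the deposited intensity of each spot and local background, and a processed intensity normalized between dyes. The authors' deposited table holds log2 RNA over DNA. Each of its 22693 values present was within 0.0001 of the log2 mean over probes of the unsubtracted ratio without non-uniform spots. Column medians were -2.11, -2.21, -2.41 and -2.19. Levels here were computed from median signals minus median background. Non-uniform spots were kept. Probe differences, first minus second, were tested across 5305 genes with limma 3.58.1 (R 4.3.3), treat at 2-fold, Benjamini-Hochberg threshold 0.05. On simulated probe differences for these genes, 62 of 80, 76 of 80 and 40 of 40 changed genes were called at log2 sizes of 1.5, 2 and 3, and 0 of 5105 others. Those others were simulated at a difference of 0, so their count does not show how often genes near the 2-fold limit would be called.

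The genes named are the 10 highest members, the 5 members inside and 5 genes outside the limit, the 3 largest and 2 smallest SDs, the 4 widest probe differences, and the 4 brightest and 2 dimmest references. Runs of 3 or more neighbouring members would also have been named. Members and lists were chosen with earlier results of these data known. The alternatives tried are listed with their effect in the closing section. Planned lists of gene functions, promoter motifs and proteins were not used, since 0 of 5688 identifiers matched. The precision is limited by the number of arrays, all on a single slide, so no batch could be compared.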

Additional observations from a re-analysis of the deposited data

Results flagged for a closer look

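Values over the 4 arrays were screened for a single array standing apart from the others, by the gap to the nearest value divided by the whole range, with a critical value of 0.829. Of 40 screened values 5 passed, and chance passes about 1 in 20. Over all 150 members 10 passed (6.67%).

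Array 1 stood apart in 3 genes. Scas_525.4 was at 5.10 on array 1 and between 5.27 and 5.29 on the others, a ratio of 0.917. Scas_595.2 was at 3.34 on array 1 and between 3.49 and 3.50 on the others (0.934). Scas_670.18, just outside the set, was at 3.20 on array 1 and between 3.31 and 3.33 on the others (0.890). Array 3 stood apart in Scas_672.8, at 4.05 against 4.12 to 4.13 (0.926), and this gene has the second smallest SD of the members.

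Array 4 had few non-uniform spots. Of 300 member spots per array, 18, 19, 20 and 3 were non-uniform on arrays 1 to 4 (0.882), and over all gene spots the numbers were 500, 577, 771 and 93. In all, 5% of member spots and 4.27% of gene spots were non-uniform. Leaving them out kept 148 of the 150 members.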

How the results depend on the processing

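The number of genes chosen again was 16 with processed signals, 11 with loess and 94 where all genes well above background could enter. It was between 145 and 149 without any 1 replicate. The median level of the members moved by more than its SD between arrays with processed signals (0.65), normexp (3.36), loess (0.36), RNA signal alone (5.40), the first probe alone (4.12), all genes well above background (4.38) and, chosen after seeing the data, members with separate probes alone (4.11). The cause was not tested except for the wider entry, where other genes take the places. Without any 1 replicate it was 4.18 to 4.21. The lowest level turned negative with processed signals (-1.13) and loess (-1.47), both in Scas_614.12. Under these settings Scas_633.2 (-0.58 and -1.30), Scas_718.43 (-0.083 and -0.45) and Scas_714.24 (-0.88 and -1.10) also turned negative. For probes more than 2-fold apart 3 members were called with processed signals, and 40 were called by eBayes, which set no minimum fold. The count was 0 in the other settings, including those without any 1 replicate. With all 4 arrays no member's difference reached the 2-fold limit in the main setting, so no conclusion is drawn from the 0. Over all genes the count was 205 with processed signals, 338 with normexp, 382 with loess, 3236 by eBayes, 69 without the background requirement and 18 to 41 without any 1 replicate, lowest without replicate 4 (26 and 27 without replicates 1 and 2). The median SD of the members stayed within its spread over members under each setting run. The median score of preferred codons was 83.3% in each choice without any 1 replicate, 82.3% in 70 members with separate probes and 72.2% in 52 members with genomic DNA signal within 2-fold of the median gene, both chosen after seeing the data. A reading frame from reference proteins and the gene list counts were not run. No paired analysis was possible because the arrays form a single group. The dimmest member spot was at 14050 net Cy3 units over a background of 22 to 24. Signal well above background was required by the rule, so this value is a description of the chosen genes.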
